A study of Mus musculus with 21 samples.

Results

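The 8 genes described here are core parts of the Hedgehog pathway that links Sertoli cells to the cells around the tubules: the ligand Dhh, the receptor Ptch1, the signal transducer Smo, the ligand-binding inhibitor Hhip, the transcription factors Gli1, Gli2 and Gli3, and their cytoplasmic inhibitor Sufu. They were picked by gene symbol with no threshold on their values, although earlier results of these data were known, and all 8 were found among the 55573 entries of the deposited table. Of the 8, 5 (Dhh, Ptch1, Smo, Gli1 and Sufu) reached a mean of 1 TPM over all libraries, as did 18977 entries of the whole table. TPM is a relative abundance corrected for transcript length, so levels of different genes can be set side by side.

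RNA was sequenced from whole testes of C57BL6 mice, which therefore hold germ cells and every somatic cell type of the organ. There were 5 Mageb4 knockout and 4 wild-type libraries from testes taken 72 h after heat shock, and 6 Mageb4 knockout and 6 wild-type libraries from testes without heat, each described as a biological replicate. The series asks how loss of Mageb4, a MAGE gene on the X chromosome, affects the testis transcriptome with and without heat stress. Not given in the sources used here were how hot and how long the shock was, how old the mice were and which allele made the knockout.

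Desert hedgehog, the product of Dhh, is secreted by Sertoli cells and binds Patched on Leydig, peritubular and other interstitial cells. Without ligand, Patched holds Smoothened inactive, and SUFU retains the GLI proteins in the cytoplasm. Ligand binding releases Smoothened, which acts in the primary cilium, and GLI factors then switch on target genes that include Gli1, Ptch1 and Hhip themselves. In mice, loss of Dhh is known for impaired Leydig cell differentiation, abnormal peritubular cells and defective spermatogenesis.

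On the mm10 genome, in the GENCODE M21 annotation, all 8 are protein-coding genes. Dhh lies on the minus strand of chr15:98891152-98898540, Ptch1 on the minus strand of chr13:63508328-63573598, Smo on the plus strand of chr6:29735503-29761365 and Hhip on the minus strand of chr8:79965851-80058006. Gli1 lies on the minus strand of chr10:127329882-127341974, Gli2 on the minus strand of chr1:118834132-119053619, Gli3 on the plus strand of chr13:15463235-15730026 and Sufu on the plus strand of chr19:46396896-46488804. Dhh shares 546 exonic bases with Rhebl1 on the same strand and 1107 with the antisense gene Gm49442, and how reads in the shared bases were divided was not stated with the data. Rhebl1 averaged 2.63 TPM in heated knockout, 5.09 TPM in heated wild-type, 4.20 TPM in unheated knockout and 4.19 TPM in unheated wild-type testes.

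Promoter windows of 300 bases, from 250 before to 50 after the transcription start, were available from RefSeq on GRCm38.p6 for 7 of the 8 genes, and not for Gli1. Of these, 4 are printed on the gene's own strand: the ligand, receptor and transducer genes, whose levels moved together, and Sufu, whose level moved apart from them. Capitals mark the 6-letter core CCACCC of the GLI binding consensus, or its reverse complement GGGTGG. The windows are chr15:98898491-98898790 (minus strand) for Dhh, chr13:63565686-63565985 (minus strand) for Ptch1, chr6:29735247-29735546 (plus strand) for Smo and chr19:46396646-46396945 (plus strand) for Sufu.
Dhh: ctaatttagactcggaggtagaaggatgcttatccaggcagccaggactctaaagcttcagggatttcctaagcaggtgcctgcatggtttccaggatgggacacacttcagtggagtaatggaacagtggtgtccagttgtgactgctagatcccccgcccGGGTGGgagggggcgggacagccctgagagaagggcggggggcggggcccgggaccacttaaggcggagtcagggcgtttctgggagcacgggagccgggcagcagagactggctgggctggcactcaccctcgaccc
Ptch1: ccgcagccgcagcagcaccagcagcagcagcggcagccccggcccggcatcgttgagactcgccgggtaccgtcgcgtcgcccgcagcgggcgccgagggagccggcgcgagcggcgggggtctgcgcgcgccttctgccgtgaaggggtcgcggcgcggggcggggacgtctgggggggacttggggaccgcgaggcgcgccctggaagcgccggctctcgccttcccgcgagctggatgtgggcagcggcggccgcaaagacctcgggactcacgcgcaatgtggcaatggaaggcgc
Smo: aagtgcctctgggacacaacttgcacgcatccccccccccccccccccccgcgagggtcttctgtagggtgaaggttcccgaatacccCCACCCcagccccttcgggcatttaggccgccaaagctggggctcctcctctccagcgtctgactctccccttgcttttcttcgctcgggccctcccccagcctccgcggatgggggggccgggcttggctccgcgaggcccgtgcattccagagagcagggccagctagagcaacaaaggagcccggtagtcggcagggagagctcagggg
Sufu: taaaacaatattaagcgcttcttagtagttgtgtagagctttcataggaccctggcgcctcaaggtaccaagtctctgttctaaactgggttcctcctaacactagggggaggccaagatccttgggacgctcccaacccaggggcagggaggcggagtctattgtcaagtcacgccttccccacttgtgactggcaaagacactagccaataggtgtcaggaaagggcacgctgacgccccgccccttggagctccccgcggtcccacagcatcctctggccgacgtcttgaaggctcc
The whole 9-letter consensus GACCACCCA, searched on both strands, was in none of the 7 windows and in 83 of 32851 promoter windows (0.253%). The core, which is contained in the consensus and was searched after the data were seen, was in 5 of the 7 windows, against 31.5% of all windows. These letters are themselves rich in G and C, and no share was taken over windows of like base composition, so the count is not read as enrichment. The core began 88 bases before the start of Dhh (position -88) and at position -162 in Smo, and neither the Ptch1 nor the Sufu window held it. The 4 windows also differed in base composition: the Ptch1 window had 76.3% G and C with 47 CpG pairs, Smo 67.7% with 17, Dhh 61.7% with 12 and Sufu 56.3% with 12, against a median of 52.7% and 7 over all windows. The Ptch1 window lies inside the gene as GENCODE M21 draws it, since that annotation also has transcripts that start farther upstream.

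As a check of the genotype labels, Mageb4 averaged 0.12 ± 0.0224 TPM in heated knockout and 8.03 ± 0.222 TPM in heated wild-type testes, and 0.0467 ± 0.0361 TPM in unheated knockout and 1.80 ± 0.173 TPM in unheated wild-type testes (SD). Marker genes of Sertoli, Leydig, peritubular myoid and interstitial fibroblast cells and of germ cells were present in every group, and no gene of those lists was at 0 in every library of a group. The lowest of the Sertoli markers was Amh, with a mean of 1.80 TPM over all libraries, and the highest was Clu, with 2668 TPM. Heated wild-type replicate 3 stood apart by epididymal RNA, with 2126 TPM of Crisp1, whereas the other heated wild-type libraries had at most 0.35 TPM. In the comparisons below that use heated wild type, each of the 8 genes that passed kept its direction and still passed without this library, and Gli2 in addition passed in the difference of the heat effects (adjusted p = 0.0367 in limma). Markers of cells less close to the pathway also moved with heat: 5 of 5 endothelial and 5 of 5 macrophage markers were higher in both genotypes, 4 of 5 spermatogonial markers were higher in the knockout and 3 of 5 in the wild type, and 5 of 6 pachytene markers were lower in both. Over all 18977 genes tested, 41.3% were higher and 41.5% lower after heat in the knockout, and 47% were higher and 44.6% lower in the wild type. TPM does not keep the read depth, so the counting error of the low genes is unknown.

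After heat, wild-type testes had more transcript of 7 of the 8 genes and less of Sufu. Differences below are of log2(TPM + 1) with their standard error, from a limma model over all 21 libraries, with Benjamini-Hochberg adjustment over every gene in the test, and a gene passed at an adjusted p under 0.05. This log scale understates changes of genes near 1 TPM, so folds of mean TPM are given too. Of the 5 genes above 1 TPM, 4 were higher and 1 was lower in heated wild-type testes; with 47% of all genes higher and 44.6% lower, a change as such was the common case. The 3 low genes, Hhip, Gli2 and Gli3, were tested in the same model without the filter, where all 3 were higher and 34.1% of 39589 entries were. In whole testis, fewer cells of a type and less RNA per cell cannot be told apart.

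**Figure D1:**
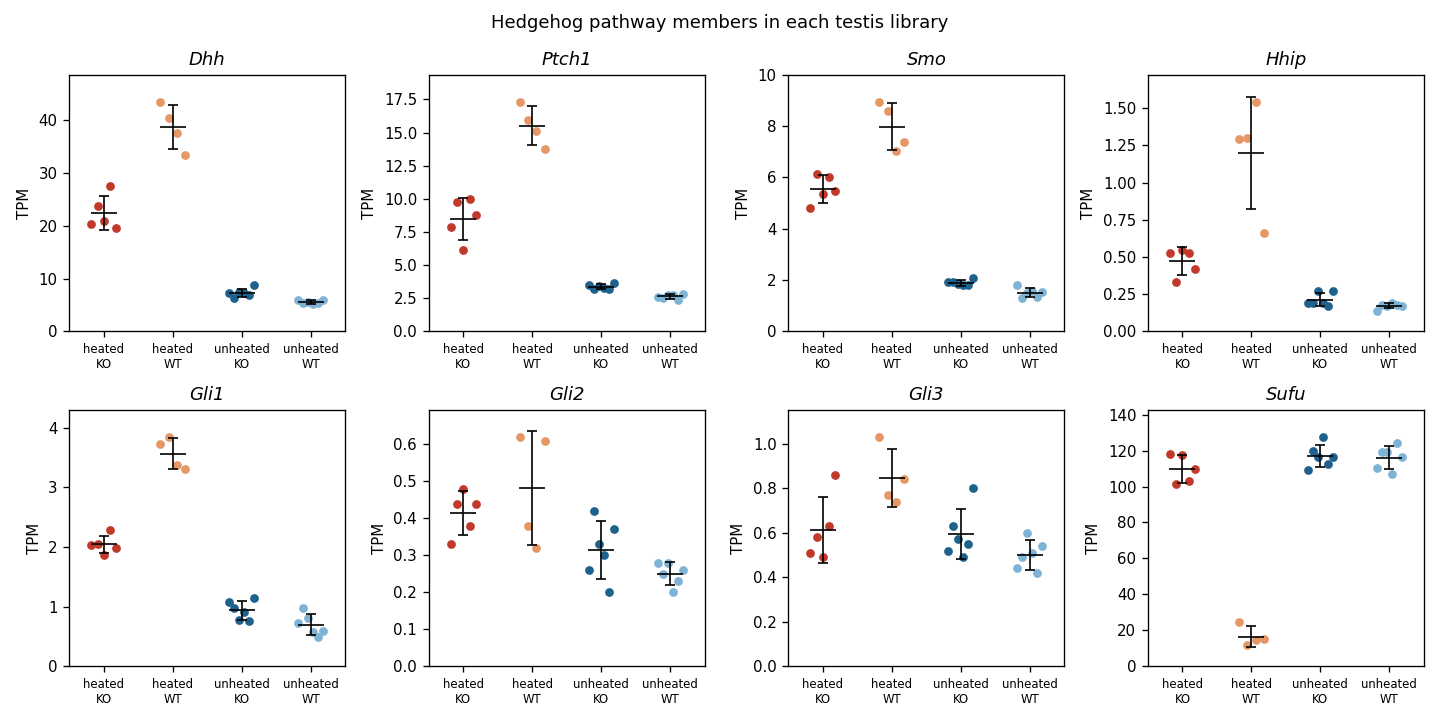
Level of each of the 8 genes in TPM (vertical axes, linear, from 0) in every library of the 4 groups; points are libraries, the long bar is the mean and the whiskers are 1 SD. Dhh, Ptch1, Smo and Gli1 are highest in heated wild type, intermediate in heated knockout and low without heat, whereas Sufu is low in heated wild type alone, at 12.01 to 24.73 TPM.

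Dhh, the ligand, had 20.35, 23.76, 20.91, 27.62 and 19.65 TPM in the heated knockout libraries and 43.43, 40.54, 37.58 and 33.47 TPM in the heated wild-type libraries. Without heat it ran from 6.34 through a median of 7.27 to 8.71 TPM in the knockout and from 5.17 through 5.48 to 6.01 TPM in the wild type. The 4 groups did not overlap anywhere: the order was heated wild type, heated knockout, unheated knockout and unheated wild type. How many of all genes are free of overlap between groups was not counted, here or for the genes below. Heated knockout testes averaged 22.5 ± 3.28 TPM of Dhh against 7.33 ± 0.779 TPM in unheated knockout testes (SD, n = 5 and n = 6), 3.07-fold, with a log2 difference of 1.49 ± 0.0850 (limma adjusted p = 1.18e-12). In heated wild-type testes it averaged 38.8 ± 4.26 TPM, 6.93-fold the 5.59 ± 0.340 TPM of unheated wild type (SD, n = 4 and n = 6), a log2 difference of 2.59 ± 0.0906 (limma adjusted p = 1.09e-16). The rise was thus present in both genotypes and smaller in the knockout, and the difference of the heat effects was -1.10 ± 0.124 (limma adjusted p = 1.12e-07).

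Ptch1, the receptor and itself a target gene, had 7.90, 9.75, 6.11, 10.02 and 8.75 TPM in heated knockout and 17.28, 15.96, 15.12 and 13.75 TPM in heated wild-type testes. Its range without heat was 3.17 to 3.62 TPM (median 3.36) in the knockout and 2.39 to 2.85 TPM (median 2.65) in the wild type. Again no 2 groups overlapped, and heated knockout replicate 3 was the lowest heated library. Heated knockout stood 2.53-fold above unheated knockout (log2 difference 1.11 ± 0.0880, limma adjusted p = 1.94e-10) and heated wild type 5.89-fold above unheated wild type (2.18 ± 0.0938, limma adjusted p = 2.04e-15). The effect of heat was smaller in the knockout by 1.08 on the log2 scale (difference -1.08 ± 0.129, limma adjusted p = 2.29e-07).

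Smo, which carries the signal across the membrane once Patched is bound, had 4.80, 6.13, 5.36, 6.01 and 5.47 TPM in heated knockout libraries, against 8.93, 8.58, 7.02 and 7.38 TPM in heated wild-type libraries. Unheated knockout testes had 1.79 to 2.10 TPM (median 1.88), and unheated wild-type testes 1.31 to 1.80 TPM (median 1.51). The heated groups were clear of each other and of the unheated ones, while the unheated groups overlapped. Heat went with a 2.92-fold level in the knockout (log2 difference 1.17 ± 0.0710, limma adjusted p = 2.78e-12) and a 5.27-fold level in the wild type (1.83 ± 0.0757, limma adjusted p = 1.08e-15). The difference of the heat effects, at -0.66 ± 0.104 (limma adjusted p = 7.39e-06), was nearer to 0 than those of Dhh and Ptch1.

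Hhip, a membrane protein that binds Hedgehog ligands and is a target gene of the pathway, was near the lower end of the measured range. It had 0.53, 0.33, 0.55, 0.53 and 0.42 TPM in heated knockout and 1.29, 1.30, 1.54 and 0.66 TPM in heated wild-type testes, and 0.17 to 0.27 TPM (median 0.19) in unheated knockout and 0.14 to 0.19 TPM (median 0.175) in unheated wild-type testes. Heated wild-type replicate 4 was low for its group, yet still above all heated knockout libraries. In the knockout the mean was 2.21-fold higher after heat (log2 difference 0.28 ± 0.0736, limma without the filter, adjusted p = 0.00318). In the wild type it was 6.98-fold higher after heat, close to the fold of Dhh, although the log2 difference of 0.89 ± 0.0785 (adjusted p = 2.54e-09 in the same limma model) was far smaller because of the added 1 TPM. The effect of heat on Hhip was smaller in the knockout (difference -0.61 ± 0.108, adjusted p = 7.65e-05 in the same limma model).

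Gli1, an activator whose transcript is a common readout of pathway activity, had 2.03, 2.04, 1.87, 2.28 and 1.98 TPM in heated knockout testes. In heated wild-type testes it had 3.73, 3.84, 3.38 and 3.30 TPM. Its unheated levels were 0.76 to 1.14 TPM (median 0.94) in the knockout and 0.49 to 0.97 TPM (median 0.66) in the wild type, and these groups overlapped, unlike the heated ones. Gli1 was 2.17-fold higher after heat in the knockout (log2 difference 0.65 ± 0.0771, limma adjusted p = 9.40e-08) and 5.15-fold higher in the wild type (1.44 ± 0.0822, limma adjusted p = 2.36e-13). The difference of the heat effects was -0.78 ± 0.113 (limma adjusted p = 2.43e-06). Gli1 shares 62 exonic bases with Arhgap9 and 265 with the antisense gene Gm47200, both on the opposite strand. Arhgap9 averaged 0.942 TPM in heated knockout, 1.365 TPM in heated wild type, 0.585 TPM in unheated knockout and 0.315 TPM in unheated wild type, the group order of Gli1. Gm47200 averaged 0.00571 TPM over all libraries. The part of the shared bases in the Gli1 values was not tested.

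Gli2 and Gli3, the GLI factors that carry the response before Gli1 is made and of which Gli3 acts largely as a repressor, changed least in the wild type. Gli2 had 0.33, 0.44, 0.48, 0.38 and 0.44 TPM in heated knockout and 0.62, 0.38, 0.32 and 0.61 TPM in heated wild-type testes, and 0.20 to 0.42 TPM (median 0.315) in unheated knockout and 0.20 to 0.28 TPM (median 0.255) in unheated wild-type testes. The heated wild-type libraries fell into a higher and a lower pair, and only their separation from unheated wild type was complete. The 1.32-fold of heated over unheated knockout did not pass (0.11 ± 0.0517, limma without the filter, adjusted p = 0.0931), and without unheated knockout replicate 2 it passed (adjusted p = 0.0446 in limma). Heated wild type was 1.93-fold above unheated wild type (0.24 ± 0.0551, adjusted p = 0.000657 in the same limma model).

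Gli3 had 0.51, 0.58, 0.49, 0.63 and 0.86 TPM in heated knockout and 1.03, 0.77, 0.74 and 0.84 TPM in heated wild-type testes, and 0.49 to 0.80 TPM (median 0.56) in unheated knockout and 0.42 to 0.60 TPM (median 0.50) in unheated wild-type testes. Heated and unheated knockout testes, at 0.614 ± 0.148 and 0.593 ± 0.112 TPM, overlapped and differed by 0.02 ± 0.0602 (limma without the filter, adjusted p = 0.875). In the wild type Gli3 was 1.69-fold higher after heat (0.30 ± 0.0642, adjusted p = 0.000369 in the same limma model). The difference of the heat effects passed for Gli3 (-0.28 ± 0.0880, adjusted p = 0.0122) and not for Gli2 (-0.13 ± 0.0756, adjusted p = 0.173), both in limma without the filter. With quantile normalization Gli2 passed too (-0.21, limma adjusted p = 0.0283), and also passed after heat in the knockout (limma adjusted p = 0.0456).

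Sufu, the inhibitor that holds GLI proteins in the cytoplasm, had 118.01, 101.43, 117.30, 102.79 and 110.0 TPM in heated knockout testes. In heated wild-type testes it had 24.73, 12.01, 14.31 and 14.99 TPM. Its unheated levels were 108.97 to 127.50 TPM (median 116.5) in the knockout and 107.16 to 124.05 TPM (median 117.9) in the wild type. Every heated wild-type library thus lay far below every other library, while the heated knockout overlapped both unheated groups. In the knockout the log2 difference after heat was -0.09 ± 0.111 (limma adjusted p = 0.453), and its sign depended on the scaling: it was 0.24 with quantile normalization, where it passed as higher (limma adjusted p = 0.0363). In the wild type Sufu was 7.03-fold lower after heat (-2.79 ± 0.118, limma adjusted p = 1.55e-15). The difference of the heat effects, 2.70 ± 0.162, ran opposite to that of the other genes (limma adjusted p = 7.13e-11).

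Read by counts, 4 of the 5 genes above the filter were higher after heat in the knockout, where 41.3% of all genes tested were, and 1 of the 3 low genes was, where 25.8% of entries were higher. The heat effect in the knockout was lower than in the wild type for 4 of the 5 genes, with 47.6% of all genes lower, and higher for Sufu, with 33.2% of all genes higher. Among the low genes, 2 of 3 had a lower heat effect in the knockout, where 28.5% of entries did. The median log2 difference over all genes tested was 0.0066 after heat in the knockout and 0.065 after heat in the wild type, and -0.2315 in the difference of these effects. Rescaling libraries by the median of ratios shifted those medians by -0.07, -0.20 and 0.13, and that of heated knockout against heated wild type by 0.11. Under that scaling Dhh was 1.41 higher after heat in the knockout and 2.36 higher in the wild type, with a difference of -0.95.

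**Figure D2:**
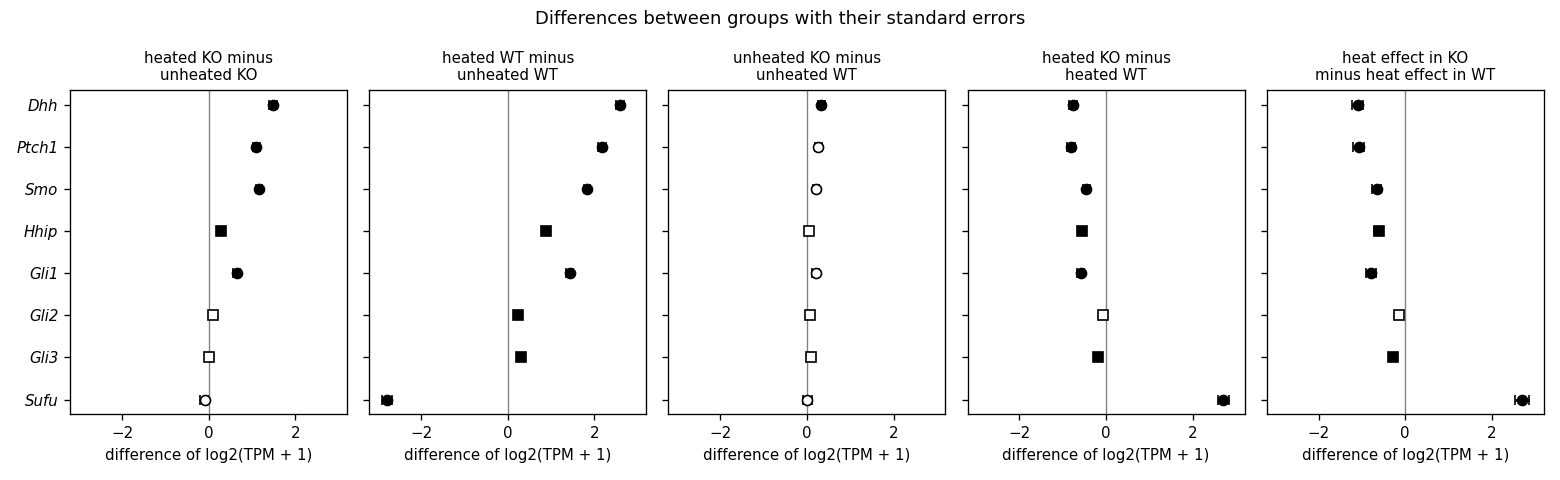
Difference of log2(TPM + 1) with its standard error for each gene (rows) in the 5 comparisons (panels); circles are genes above the filter, squares the 3 genes tested without it, and filled symbols passed at an adjusted p under 0.05. In the comparison without heat only Dhh is filled, and Sufu stands opposite to the other genes in the wild-type heat panel and in the last 2.

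After heat, knockout testes differed from wild-type testes in 7 of the 8 genes. Of all genes tested, 49% passed as lower and 34.4% as higher here, so a difference as such was the common case. Hhip and Gli3, among the 7, were tested without the filter, where 31% of entries were lower. Dhh was 1.73-fold lower in heated knockout than in heated wild type (log2 difference -0.77 ± 0.0942, limma adjusted p = 2.19e-07), and Ptch1 was 1.83-fold lower (-0.81 ± 0.0975, limma adjusted p = 1.59e-07). Gli1 was 1.75-fold lower (-0.59 ± 0.0855, limma adjusted p = 2.27e-06) and Smo 1.44-fold lower (-0.45 ± 0.0787, limma adjusted p = 2.09e-05). The largest fold among the lower genes was that of Hhip, 2.54 (-0.56 ± 0.0816, limma without the filter, adjusted p = 6.51e-06). In these 5 genes the heated groups did not overlap. The share of all genes without overlap was not counted, and 49% of all genes passed as lower in this comparison. Sufu was 6.66-fold higher in heated knockout, at 109.9 ± 7.79 TPM against 16.5 ± 5.63 TPM in heated wild type (2.71 ± 0.122, limma adjusted p = 3.83e-13).

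Among the GLI factors at low level, Gli3 passed at -0.20 ± 0.0667 (limma without the filter, adjusted p = 0.0190), although the heated groups overlapped, and Gli2 did not (-0.06 ± 0.0573, adjusted p = 0.404 in the same limma model). Both calls turned with the scaling: with quantile normalization Gli2 passed as lower (-0.15, limma adjusted p = 0.0339), so that all 8 genes differed, and with the median of ratios Gli3 did not pass (-0.14, limma adjusted p = 0.0655). The Gli3 call was also lost without heated knockout replicate 1, heated knockout replicate 3 or heated wild-type replicate 1, with limma adjusted p-values up to 0.0857. In counts, 4 of the 5 genes above the filter were lower in heated knockout, where 49% of all genes were, and 1 was higher, where 34.4% were. Of the low genes, 2 of 3 were lower, where 31% of entries were.

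Without heat, the knockout differed little from the wild type. Dhh was 1.31-fold higher in unheated knockout, at 7.33 ± 0.779 TPM against 5.59 ± 0.340 TPM in unheated wild type (SD, n = 6 each), with a log2 difference of 0.33 ± 0.0810 (limma adjusted p = 0.0472). It was the only gene of the 5 above the filter to pass, where 1.25% of all genes were higher; none of the 3 low genes passed, where 0.167% of entries were higher. Dhh was higher in all 6 knockout libraries than in any wild-type library, and the share of all genes with no overlap between these groups was not counted. The Dhh call was lost with no filter, the median of ratios, quantile normalization and the replicate block, at limma adjusted p-values of 0.0836, 0.0508, 0.10 and 0.0629. In the fit with no filter, leaving out any 1 library gave limma adjusted p-values of 0.0541 to 0.142, on either side of that 0.0836. How far the call with the filter rests on 1 library is not given here. Ptch1, at 3.37 ± 0.184 TPM in unheated knockout and 2.64 ± 0.169 TPM in unheated wild type, did not overlap either, and did not pass (0.26, limma adjusted p = 0.105). Smo (0.21, limma adjusted p = 0.113) and Gli1 (0.20, limma adjusted p = 0.162) overlapped between the groups, and Sufu differed by 0.01 (limma adjusted p = 0.987). With the 2 unheated groups fitted alone, Dhh, Ptch1 and Smo all passed as higher, where 6.19% of all genes did.

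The order of levels changed with heat and genotype. Without heat it was Sufu, Dhh, Ptch1, Smo, Gli1, Gli3, Gli2 and Hhip in both genotypes, from 117.0 TPM of Sufu to 0.213 TPM of Hhip in the knockout and from 116.1 TPM of Sufu to 0.172 TPM of Hhip in the wild type. Neighbours whose ranges overlapped were Gli1 and Gli3 in both genotypes, and Gli2 and Hhip in the knockout. In heated knockout testes Sufu still led, at 109.9 TPM, followed by Dhh at 22.5 TPM; Ptch1 overlapped Smo, Gli3 overlapped Hhip, and Hhip overlapped Gli2. In heated wild-type testes Dhh led at 38.8 TPM, the levels of Sufu (16.5 TPM) and Ptch1 (15.5 TPM) overlapped, and Hhip had moved above Gli2 and Gli3, overlapping Gli3.

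Ratios of TPM within a library do not depend on how libraries were scaled against each other. With 1 TPM added to both genes, as in the main tests below, a ratio does depend on that scaling. Dhh over Ptch1 averaged 2.69 ± 0.451 in heated knockout, 2.49 ± 0.0453 in heated wild type, 2.17 ± 0.150 in unheated knockout and 2.13 ± 0.161 in unheated wild type (SD). On the scale with 1 TPM added, the log2 ratio was 0.38 higher after heat in the knockout and 0.41 higher in the wild type (2-sided exact permutation, p = 0.00216 and p = 0.00476, the smallest these group sizes allow, adjusted p = 0.0143 each over 12 tests). Without the added 1 TPM, those differences were 0.29 in the knockout and 0.23 in the wild type and did not pass (exact permutation, adjusted p = 0.0649 each).

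Gli1 over Ptch1, the ratio of 2 target genes, averaged 0.245 ± 0.0381 in heated knockout, 0.230 ± 0.0123 in heated wild type, 0.278 ± 0.0386 in unheated knockout and 0.263 ± 0.0720 in unheated wild type. Its fall on the scale with 1 TPM added (-0.45 in the knockout and -0.75 in the wild type, exact permutation, adjusted p = 0.0143 each) shrank without it to -0.18 in the knockout and -0.16 in the wild type, and did not pass there (exact permutation, adjusted p = 0.476 and 0.675). Gli3 over Gli2 averaged 1.50 ± 0.352 in heated knockout, 1.84 ± 0.410 in heated wild type, 1.96 ± 0.456 in unheated knockout and 2.02 ± 0.329 in unheated wild type, and no comparison of it passed (exact permutation, adjusted p from 0.270 to 0.722). Between the genotypes, neither Dhh over Ptch1 nor Gli1 over Ptch1 passed with or without heat; the nearest was Gli1 over Ptch1 after heat (0.23, exact permutation, adjusted p = 0.152).

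**Figure D3:**
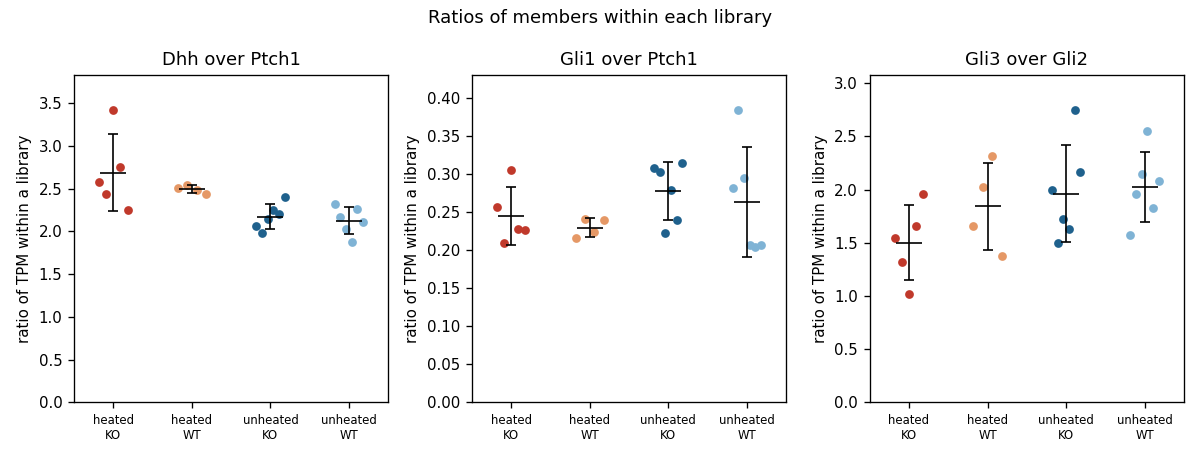
Ratios of TPM within each library (vertical axes, linear, from 0) for 3 pairs of genes; points are libraries, the long bar is the mean and whiskers are 1 SD. Dhh over Ptch1 lies between 1.87 and 3.42 in all 21 libraries, although Dhh itself differs 6.93-fold between heated and unheated wild type.

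Markers of the cells that make the ligand moved in the same direction as Dhh. Of 12 Sertoli markers, all 12 were higher after heat in both genotypes, where 41.3% of all genes were in the knockout and 47% in the wild type. Their median log2 difference was 1.60 in the knockout and 2.81 in the wild type, and 11 of 12 were lower in heated knockout than in heated wild type (median -0.91), where 49% of all genes were. Their summed level ran from 4793 to 6977 TPM in heated knockout, from 10565 to 13200 TPM in heated wild type, from 1631 to 2200.4 TPM in unheated knockout and from 1298 to 1479 TPM in unheated wild type. Without heat, 3 of the 12 were higher in the knockout, where 1.25% of all genes were. The log2 level of Dhh minus the mean of the Sertoli markers was -2.26 ± 0.0805 in heated knockout, -2.37 ± 0.0649 in heated wild type, -2.17 ± 0.0844 in unheated knockout and -2.19 ± 0.0405 in unheated wild type. The group means of this difference lay between -2.37 and -2.17, and the part of the marker change in the Dhh result was not tested.

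Markers of the cells that receive the ligand moved likewise. All 8 Leydig markers, all 7 peritubular myoid markers and all 7 interstitial fibroblast and progenitor markers were higher after heat in both genotypes, against the same shares of 41.3% of all genes in the knockout and 47% in the wild type. The Leydig sum was 3913 to 5084 TPM in heated knockout, 4456 to 6371 TPM in heated wild type, 1298 to 1983 TPM in unheated knockout and 1022 to 1495 TPM in unheated wild type, and 4 of the 8 were lower in heated knockout than in heated wild type, near the 49% of all genes. The peritubular sum was 301 to 430 TPM in heated knockout, 542 to 697 TPM in heated wild type, 147 to 188 TPM in unheated knockout and 131 to 156 TPM in unheated wild type, with 6 of 7 lower in heated knockout. The fibroblast sum was 164 to 248 TPM in heated knockout, 374 to 528 TPM in heated wild type, 57.4 to 69.1 TPM in unheated knockout and 47.1 to 57.1 TPM in unheated wild type, with 5 of 7 lower in heated knockout. Ptch1 minus the mean of the fibroblast list was -0.36 ± 0.221 in heated knockout, -0.17 ± 0.118 in heated wild type, -0.29 ± 0.0490 in unheated knockout and -0.37 ± 0.0867 in unheated wild type. Beside the macrophage list Ptch1 was about as level, at -0.71 ± 0.220 in heated knockout, -0.76 ± 0.230 in heated wild type, -0.64 ± 0.103 in unheated knockout and -0.63 ± 0.0381 in unheated wild type. Beside the peritubular and Leydig lists Ptch1 stood less level. Minus the peritubular mean it was -1.50 ± 0.224 in heated knockout, -1.22 ± 0.0975 in heated wild type, -1.79 ± 0.0650 in unheated knockout and -1.89 ± 0.128 in unheated wild type. Minus the Leydig mean it was -4.26 ± 0.233 in heated knockout, -3.71 ± 0.212 in heated wild type, -3.98 ± 0.105 in unheated knockout and -3.86 ± 0.202 in unheated wild type. Whether the receptor genes changed per cell was not tested.

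Sufu moved with germ cell lists in some comparisons and apart from them in others. All 6 round spermatid markers were lower after heat in both genotypes, with medians of -1.94 in the knockout and -4.59 in the wild type, and all 6 were higher in heated knockout than in heated wild type; 41.5% and 44.6% of all genes were lower after heat in the knockout and in the wild type, and 34.4% were higher in heated knockout. Their sum was 425 to 723 TPM in heated knockout, 102 to 190.2 TPM in heated wild type, 1736 to 1836 TPM in unheated knockout and 1776 to 1906 TPM in unheated wild type. Elongating spermatid transcripts, 8 genes chosen after their values were seen, summed to 68099 to 85408 TPM in heated knockout, 28332 to 39067 TPM in heated wild type, 43179 to 50175 TPM in unheated knockout and 41054 to 51902 TPM in unheated wild type. The lower sum in heated wild type did not hold for each gene. After heat in the wild type 3 of the 8 were higher, 3 lower and 2 did not pass, against 47% and 44.6% of all genes higher and lower. In the knockout all 8 were higher, where 41.3% of all genes were. Sufu minus the round spermatid mean was 0.59 ± 0.312 in heated knockout and 0.29 ± 0.285 in heated wild type, against -1.18 ± 0.103 in unheated knockout and -1.23 ± 0.0677 in unheated wild type. In heated knockout Sufu therefore kept its unheated TPM while round spermatid markers fell. Minus the elongating spermatid mean, Sufu ran from -6.06 to -5.83 in heated knockout and from -7.85 to -7.12 in heated wild type. Without heat that difference ran from -5.19 to -5.09 in the knockout and from -5.27 to -5.13 in the wild type. The part of either list in the Sufu result was not tested.

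**Figure D4:**
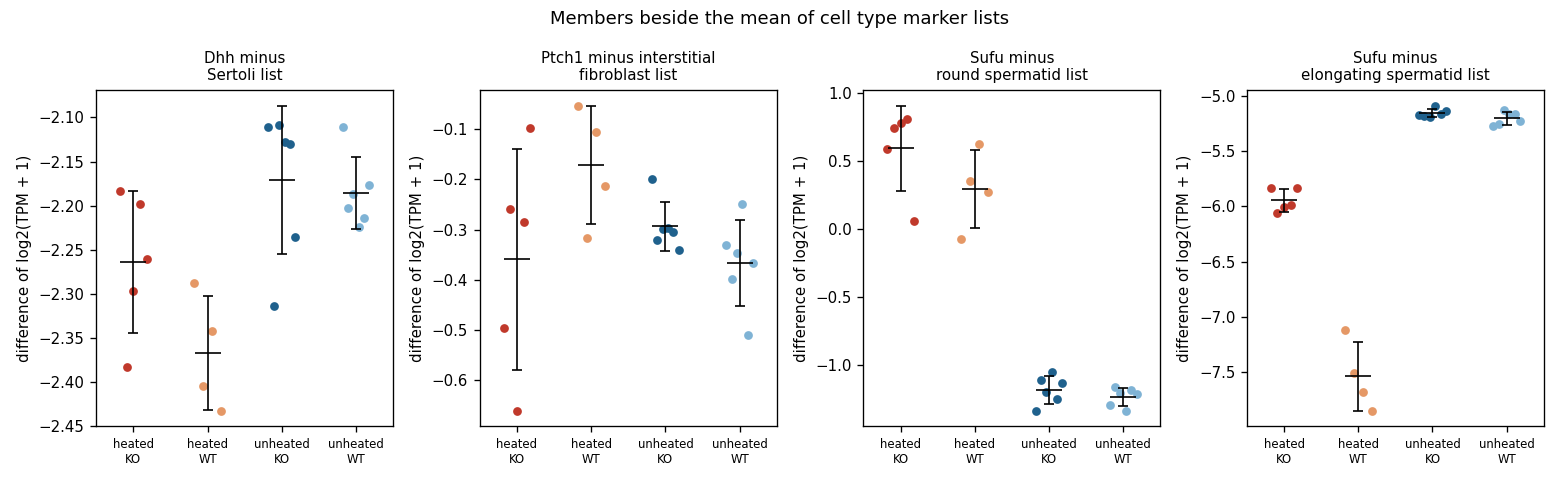
Level of a gene minus the mean of a marker list, in log2(TPM + 1) (vertical axes, not from 0), per library in the 4 groups; the long bar is the mean and whiskers are 1 SD. Dhh lies between -2.43 and -2.11 beside the Sertoli list in all groups, while Sufu shifts by more than 1 beside the round spermatid list after heat.

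Genes whose pattern over the 21 libraries was most like that of each gene were found as a description, by the root mean square difference of centred log2(TPM + 1) among 10881 genes averaging 5 TPM or more. For Dhh the nearest were Sox8, a SOX transcription factor of Sertoli cells, and St6galnac6, a sialyltransferase, at 0.0742 and 0.0749, against a spread of 1.03 for Dhh itself. Sox8 had 20.9 ± 3.30 TPM in heated knockout, 38.7 ± 3.70 TPM in heated wild type, 7.05 ± 0.915 TPM in unheated knockout and 5.39 ± 0.270 TPM in unheated wild type, almost the levels of Dhh. For Ptch1 the nearest were the corepressor gene Tle4 (0.0804) and the adenylate cyclase gene Adcy7 (0.0853), for Smo Pex26 (0.0858), a peroxisome biogenesis gene, and Zfp553 (0.0931), and for Gli1 Nrbp1 (0.0784) and Nde1 (0.0851). Those of Sufu were Ccdc159 (0.112) and Trim17 (0.113). Ccdc159 had 66.3 ± 11.1 TPM in heated knockout, 10.3 ± 4.36 TPM in heated wild type, 73.1 ± 5.40 TPM in unheated knockout and 72.1 ± 5.32 TPM in unheated wild type. The added 1 TPM narrows the changes of low genes, so likeness to Gli1 is not likeness in fold. Nrbp1 averaged 99.4 ± 7.33 TPM in heated and 37.0 ± 2.27 TPM in unheated wild type, whereas Gli1 averaged 3.56 ± 0.263 and 0.692 ± 0.177 TPM there.

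Of 42 other pathway genes counted by role, 34 reached a mean of 1 TPM; 17 were higher and 12 lower after heat in the knockout, and 19 were higher and 14 lower after heat in the wild type. In heated knockout against heated wild type, 7 were higher and 21 lower. Over all genes tested, the shares higher and lower were 41.3% and 41.5% after heat in the knockout, 47% and 44.6% after heat in the wild type, and 34.4% and 49% in heated knockout against heated wild type. The counts after heat are near these shares and are not read as a result about the pathway. The median log2 difference of the 34 was 0.33 after heat in the knockout, 0.92 after heat in the wild type and -0.37 in heated knockout against heated wild type.

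The other ligands, Shh and Ihh, averaged 0.322 and 0.242 TPM in heated wild type and at most 0.178 TPM in the remaining groups, and 1 library, heated wild-type replicate 3, was the highest for both, with 1.20 TPM of Shh and 0.53 TPM of Ihh. Without this library, which held the epididymal RNA, the heated wild-type means were 0.03 TPM for Shh and 0.147 TPM for Ihh. Dhh was thus the only Hedgehog ligand above the filter. Of 4 tested genes for ligand release and spread, Disp1, which releases lipid-bearing ligand, was higher after heat in the knockout (0.54 ± 0.0972, limma adjusted p = 3.04e-05) and in the wild type (1.17 ± 0.104, limma adjusted p = 4.65e-10). The secreted carriers Scube2 and Scube3 were lower in both genotypes, and Scube2 averaged 13.5 ± 0.607 TPM in heated knockout, 9.63 ± 1.57 TPM in heated wild type, 15.5 ± 0.927 TPM in unheated knockout and 15.8 ± 0.799 TPM in unheated wild type.

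The 4 other receptor and co-receptor genes reported here were higher after heat in each genotype, where 41.3% of all genes were in the knockout and 47% in the wild type. The co-receptor genes Gas1 (1.11 ± 0.0843 in the knockout) and Boc (1.51 ± 0.0777 in the wild type) rose with Ptch1. These 4 were lower in heated knockout than in heated wild type, where 49% of all genes were. Boc was lower by a log2 difference of -0.59 ± 0.0808 (limma adjusted p = 8.99e-07).

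Among 13 tested cytoplasmic and ciliary regulators, 7 were higher and 4 lower after heat in the knockout, and 8 were higher and 5 lower in the wild type, counts near the shares over all genes. Prkacb, a catalytic subunit of protein kinase A, which primes GLI proteins for processing, was higher in both (1.11 ± 0.0768 in the knockout and 2.14 ± 0.0818 in the wild type). The more abundant catalytic subunit gene Prkaca averaged 69.5 ± 4.28 TPM in heated knockout, 96.8 ± 6.48 TPM in heated wild type, 105.7 ± 4.44 TPM in unheated knockout and 106.1 ± 2.96 TPM in unheated wild type. Prkaca was lower after heat in the knockout (-0.60 ± 0.0485, limma adjusted p = 2.64e-10) and in the wild type (-0.13 ± 0.0517, limma adjusted p = 0.0197), where it turned to 0.19 with quantile normalization (limma adjusted p = 0.000644) and did not pass with the replicate block (limma adjusted p = 0.0634). Stk36 and Gsk3b, both kinase genes, shared with Sufu a low level in heated wild type. Stk36 averaged 74.1 ± 14.7 TPM in heated knockout, 18.5 ± 5.05 TPM in heated wild type, 135.2 ± 5.77 TPM in unheated knockout and 137.1 ± 9.54 TPM in unheated wild type. Gsk3b averaged 158.3 ± 19.7 TPM in heated knockout, 51.9 ± 10.9 TPM in heated wild type, 162.8 ± 7.44 TPM in unheated knockout and 166.3 ± 9.18 TPM in unheated wild type. In heated knockout against heated wild type, Gsk3b was 1.60 ± 0.102 higher (limma adjusted p = 1.59e-11), and 11 of the 13 regulators were lower, where 49% of all genes were, among them the regulatory subunit gene Prkar1a (-0.70 ± 0.0659, limma adjusted p = 5.50e-09).

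Of 6 cilium assembly genes, 5 were lower after heat in the knockout and 6 in the wild type, where 41.5% and 44.6% of all genes were; these genes also serve the sperm flagellum. Ift140, a retrograde transport gene, fell to 47.6 ± 5.38 TPM in heated knockout and 23.8 ± 5.29 TPM in heated wild type, against 176.7 ± 2.37 TPM in unheated knockout and 180.2 ± 2.94 TPM in unheated wild type. Ift172 was 0.84 ± 0.0810 higher in heated knockout than in heated wild type (limma adjusted p = 7.57e-09).

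Of 7 tested textbook target genes other than Gli1, Ptch1 and Hhip, 5 were higher and 1 lower after heat in each genotype, where 41.3% of all genes were higher and 41.5% lower in the knockout, and 47% higher and 44.6% lower in the wild type. Nr2f2, a nuclear receptor gene of interstitial progenitors that is also in the fibroblast list, had 9.73 ± 1.32 TPM in heated knockout, 17.3 ± 1.74 TPM in heated wild type, 3.89 ± 0.161 TPM in unheated knockout and 3.19 ± 0.285 TPM in unheated wild type. Foxm1, a cell cycle transcription factor gene, fell, to 33.7 ± 6.92 TPM in heated knockout and 16.6 ± 2.74 TPM in heated wild type, against 104.8 ± 3.37 TPM in unheated knockout and 107.7 ± 3.32 TPM in unheated wild type. Without heat, 1 of the 34 pathway genes passed, the growth factor gene Igf2, which averaged 8.63 ± 1.11 TPM in unheated knockout and 6.02 ± 1.02 TPM in unheated wild type (0.46 ± 0.0838, limma adjusted p = 0.0154), where 1.25% of all genes were higher. The Igf2 call was lost with quantile normalization (limma adjusted p = 0.0508).

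**Figure D5:**
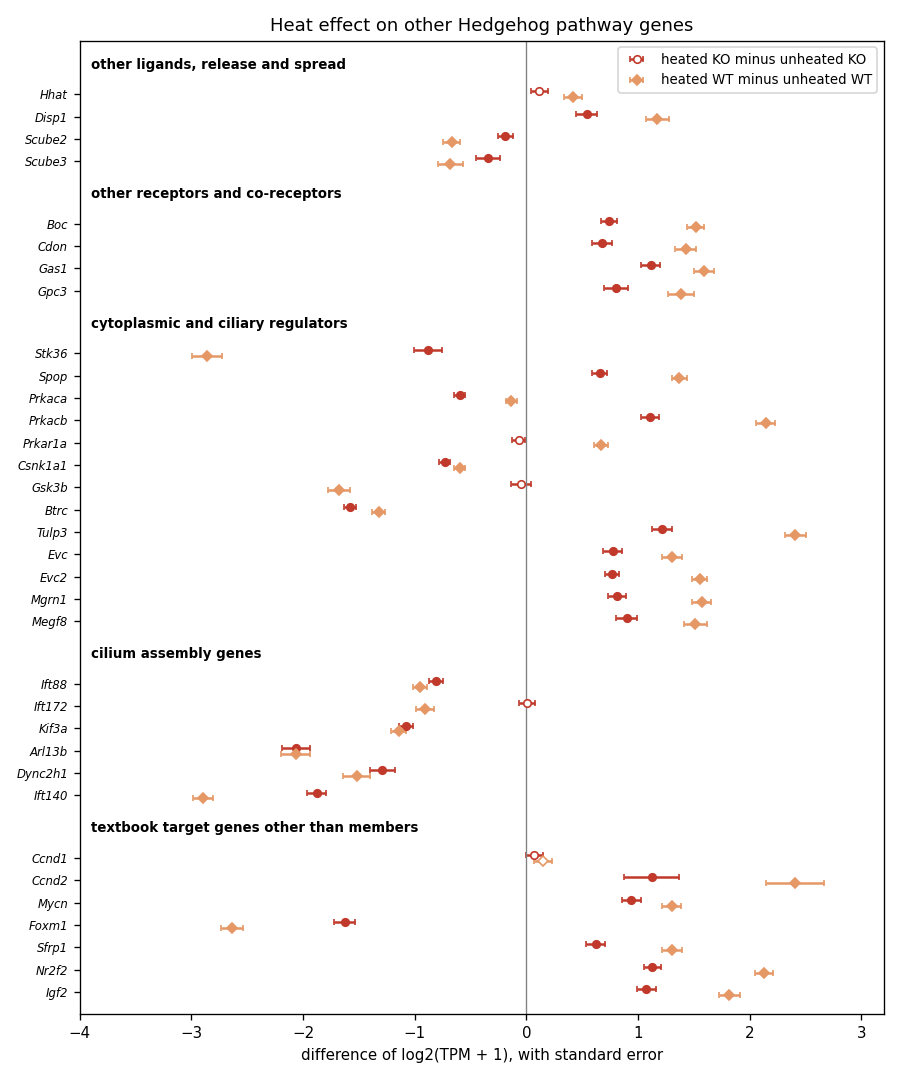
Heat effect on the 34 other pathway genes (rows, grouped by role) as the difference of log2(TPM + 1) with its standard error (horizontal axis), for heated minus unheated knockout (red circles) and heated minus unheated wild type (orange diamonds); filled symbols passed at an adjusted p under 0.05. The 4 receptor and co-receptor genes drawn lie right of 0, and all cilium assembly genes lie left of 0 in the wild type.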

How the data were processed

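RNA from whole testes was made into stranded mRNA libraries, per the labels' protocols. Per the submitters' processing notes, the aligner was STAR and the genome mm10. Not given in the sources used here were the STAR version, the annotation and the TPM tool. The authors deposited TPM values, 1 table for all 21 libraries, and every library has the same sum, so depth and counting error are unknown and precision comes from the replicates alone.

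The 8 genes and all lists were chosen with earlier results of these data known. Values became log2(TPM + 1). Genes averaging 1 TPM or more were kept, and a model of the 4 group means was fitted to all libraries with limma 3.58.1 in R 4.3.3, with trend and empirical Bayes moderation. Benjamini-Hochberg adjustment ran over every gene of a comparison, with a threshold of 0.05. Hhip, Gli2 and Gli3, below the filter, were tested with no filter. Ratios of genes were tested by 2-sided exact permutation in scipy 1.17.1. The model was tested on simulated data. Named genes were the 8, Mageb4, for each pathway list and comparison the gene with the largest positive and negative moderated t among those that passed, and the 2 nearest patterns. Shh, Ihh, Prkaca, Crisp1, Rhebl1, Gm49442, Gm47200 and Arhgap9 were named after their values were seen. 1 listed pathway gene is not reported here and is left out of the counts. Replicate numbers were not taken to pair samples: the correlation of same-numbered deviations ran from -0.228 to 0.314. Coordinates are from GENCODE M21, and promoters from RefSeq. Alternatives tried were a pseudocount of 0.1 or none (ratios), no filter, a filter of 5 TPM, scaling by the median of ratios, quantile normalization, only the groups compared, a replicate block and leaving out each library.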

Additional observations from a re-analysis of the deposited data

Results flagged for a closer look

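For 7 of the 8 genes the effect of heat differed between the genotypes in limma's test of the difference itself (heat effect in the knockout minus heat effect in the wild type, in log2(TPM + 1)). The difference was -1.10 for Dhh, -1.08 for Ptch1, -0.78 for Gli1 and -0.66 for Smo, and 2.70 for Sufu. For the low genes it was -0.61 for Hhip and -0.28 for Gli3. Gli2, at -0.13, did not pass in the main fit. It passed with quantile normalization (-0.21, limma adjusted p = 0.0283) and without heated wild-type replicate 3 (-0.19, limma adjusted p = 0.0367). The added 1 TPM narrows the differences of low genes, so the order of these values is not that of folds. Hhip was 2.21-fold higher after heat in the knockout and 6.98-fold in the wild type, and Dhh 3.07-fold and 6.93-fold. Of all genes tested, 47.6% passed as lower and 33.2% as higher. No library stood apart from its group in any of 44 checks of the genes' levels and ratios with Dixon's test, where chance alone flags about 1 in 20.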

How the results depend on the processing

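TPM without depth limits what can be said of Gli2, Gli3 and Hhip, and no alternative can restore it. A filter of 5 TPM left 2 of the genes passing (heat in either genotype, higher; heated knockout and difference of heat effects, lower), since fewer were tested; the other pathway genes then numbered 8 and 9 higher after heat in the knockout and wild type, and 12 and 11 lower in heated knockout and in the difference. For the low genes, quantile normalization gave 2 higher after heat in the knockout, and with it Gli2 also passed as lower in heated knockout and in the difference, making 3 lower in each; the median of ratios, or fitting only the groups compared, gave 1 lower in heated knockout; leaving out 1 library gave 1 to 2 higher after heat in the knockout and 1 to 2 lower in heated knockout. Sufu after heat in the knockout turned to 0.24 with quantile normalization.

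Without heat, 0 genes passed as higher with no filter, the median of ratios, quantile normalization or the replicate block. The limma adjusted p of Dhh was 0.0836, 0.0508, 0.10 and 0.0629 in these 4. Leaving out any 1 library, in the fit with no filter, gave 0 throughout. With only the groups compared, 3 passed. Of the other pathway genes, 0 passed with quantile normalization, 3 with only the groups compared and 0 to 1 with a library left out; the median of ratios gave 10 higher in the difference of heat effects. Over all genes without heat, 237 higher and 16 lower became 37 and 14 with quantile normalization, 109 and 16 with the median of ratios, 444 and 10 with a pseudocount of 0.1, 66 and 14 with no filter, 173 and 8 with the replicate block, and 1175 and 137 with only the groups compared. The numbers do not pair the samples, and the replicate block changed no other call of the 8 genes.

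The heat effects on Dhh over Ptch1 were 0.31 in the knockout and 0.26 in the wild type with a pseudocount of 0.1, and 0.29 and 0.23 with none; those on Gli1 over Ptch1 were -0.24 and -0.27 with 0.1, and -0.18 and -0.16 with none. None of these passed. The cause of these changes was not tested.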
